A study of Mus musculus with 72 samples.

Results

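Transcript levels in whole blood were set side by side for mice that drank water with 50 µg/mL lead (Pb) and mice that drank water with 5 µg/mL Pb, taken at the end of 2 weeks of exposure. The comparison took the 15 arrays titled as high Pb after exposure and the 15 titled as low Pb after exposure, 30 of the 72 arrays of the series, and every gene that could be named from a probe set with exactly 1 gene symbol. All mice were female Balb/c, 9 weeks old at the start, and Pb was given as lead acetate trihydrate. The 7 control arrays of the same collection, from mice on water with 0 µg/mL Pb, are given beside the doses, as are the 13 high-dose, 15 low-dose and 7 control arrays taken after 2 further weeks of recovery on Pb-free water. Blood came from the submandibular vein, and globin transcripts were depleted before labelling in every group. The mice were dosed by group through the water, and the intake of single mice is not given in the sources used here. Each array of a collection is labelled as a separate blood sample, and the recovery samples are second bleeds of the exposed mice rather than blood of other animals. Values are log2 levels as deposited, and a difference of 1 is a doubling.

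Whole blood holds the RNA of reticulocytes, platelets, neutrophils, monocytes and lymphocytes, so a level in it reflects how many cells of each kind there are and how much of a transcript each holds. Lead is known for displacing zinc in delta-aminolevulinate dehydratase and for interfering with ferrochelatase in heme synthesis, and for inhibiting the pyrimidine nucleotidase of red cells. Heat shock proteins are chaperones that fold or refold other proteins. Their genes are switched on by heat shock factor 1, which binds inverted repeats of a short nGAAn unit when unfolded proteins accumulate.

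The 2 largest differences between the doses were those of chaperone genes, and the promoters of the chaperone genes with the largest differences are shown because that binding motif can be read in them. The motif was searched on both strands as 2 inverted units, GAANNTTC or TTCNNGAA, and as 3 units, in which NNGAA follows the first form or NNTTC the second, so each match of 3 units also holds 2 overlapping matches of 2 units. Windows run from 250 bases before to 50 bases after an annotated start (RefSeq, GRCm38.p6). Capitals mark every match of 2 units, 5′ to 3′ on the gene's strand.
Hspa1b (chr17:34959189-34959488, minus strand): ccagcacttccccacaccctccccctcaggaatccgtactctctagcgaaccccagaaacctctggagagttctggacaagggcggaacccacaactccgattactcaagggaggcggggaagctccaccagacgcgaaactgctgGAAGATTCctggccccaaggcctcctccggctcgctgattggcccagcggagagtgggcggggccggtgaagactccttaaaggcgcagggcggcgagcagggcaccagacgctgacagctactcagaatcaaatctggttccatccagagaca
Hsph1 (chr5:149636266-149636565, minus strand): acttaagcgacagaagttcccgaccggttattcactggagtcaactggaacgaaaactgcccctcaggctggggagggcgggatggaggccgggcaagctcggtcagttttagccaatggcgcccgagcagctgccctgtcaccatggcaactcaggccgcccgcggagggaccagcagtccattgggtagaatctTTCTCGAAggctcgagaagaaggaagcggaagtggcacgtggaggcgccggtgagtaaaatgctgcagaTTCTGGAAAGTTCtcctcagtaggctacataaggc
Dnaja1 (chr4:40722218-40722517, plus strand): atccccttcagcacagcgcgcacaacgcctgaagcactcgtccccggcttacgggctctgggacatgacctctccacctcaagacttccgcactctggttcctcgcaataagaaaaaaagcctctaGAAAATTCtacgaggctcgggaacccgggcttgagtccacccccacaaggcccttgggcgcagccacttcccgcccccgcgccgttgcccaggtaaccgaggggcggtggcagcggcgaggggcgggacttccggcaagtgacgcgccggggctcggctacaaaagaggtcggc
Chordc1 (chr9:18292017-18292316, plus strand): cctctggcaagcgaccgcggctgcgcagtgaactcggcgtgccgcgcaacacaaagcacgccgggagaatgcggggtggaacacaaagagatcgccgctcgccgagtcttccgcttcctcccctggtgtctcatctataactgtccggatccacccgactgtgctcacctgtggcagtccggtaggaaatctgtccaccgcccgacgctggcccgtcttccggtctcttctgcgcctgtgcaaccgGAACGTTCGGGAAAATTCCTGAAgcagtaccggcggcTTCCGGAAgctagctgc

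The window of Hspa1b held 1 match of 2 units and that of Dnaja1 1. The window of Hsph1 held 3 matches of 2 units and 1 of 3 units, and that of Chordc1 5 and 3. No match was found in the window of Stip1, the fifth of these genes. Where a gene had several windows, the one with the most matches is shown, and 1 of the 3 windows of Dnaja1 held a match. Over all 27025 genes with a window, 17.0% had a match of 2 units and 0.662% a match of 3 units in at least 1 window. Of the 38 chaperone genes measured in blood, 33 had a window, and 15 of these (45.5%) had a match of 2 units and 5 (15.2%) a match of 3 units. Among the chaperone genes described next as higher at the high dose, 15 had a window, with a match of 2 units in 8 and of 3 units in 3. Among the other chaperone genes 18 had a window, with a match of 2 units in 7 and of 3 units in 2. A match is a description of letters and not a measured binding site.

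In all, 2349 of 12588 tested genes (18.7%) differed between the doses after exposure at an adjusted p under 0.05, by limma with Benjamini-Hochberg adjustment over all genes. At the high dose 760 genes were higher (6.04% of those tested) and 1589 lower (12.6%). Most differences were small. The median among the higher genes was 0.26, the median among the lower genes was -0.24, 60 genes reached 1.5-fold (13 higher, 47 lower), and only Hspa1b and Hsph1 reached 2-fold. In 0 genes did all 15 high-dose arrays lie apart from all 15 low-dose arrays. The split into higher and lower genes followed the scaling of the arrays: of the called genes 32.4% were higher in the values as deposited, 44% after quantile normalization (1147 of 2604), 51.5% after median centring (1212 of 2354) and 49.7% after cyclic loess (1168 of 2351).

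**Figure D1:**
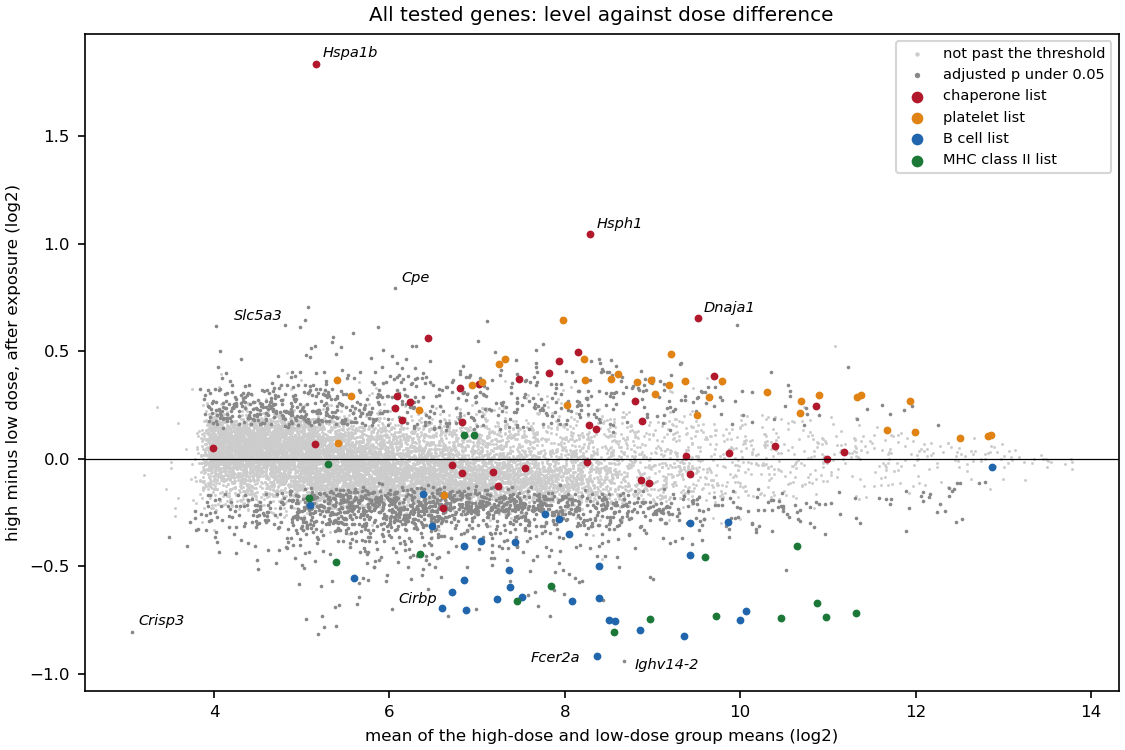
Each point is 1 of the 12588 tested genes, with the mean of both dose groups' log2 levels after exposure on the horizontal axis and the log2 difference, high minus low dose, on the vertical axis. Dark grey marks an adjusted p under 0.05 and colours mark 4 gene lists; Hspa1b (1.84) and Hsph1 (1.04) lie above all other genes, and B cell and MHC class II genes lie among the lowest.

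Some measures of array quality also differed between the doses. The hybridisation controls, bacterial transcripts added before hybridisation, averaged 10.24 ± 0.40 on high-dose and 9.81 ± 0.36 on low-dose arrays (SD, n = 15 each; two-sided permutation test of 7 measures, adjusted p = 0.0143). The interquartile range of each array's deviations from the median array averaged 0.316 ± 0.066 on high-dose and 0.250 ± 0.028 on low-dose arrays (SD, n = 15 each; adjusted permutation p = 0.00315). The 18S ribosomal RNA probe sets averaged 7.79 on high-dose and 7.00 on low-dose arrays (adjusted permutation p = 0.0617), and the 3' to 5' signal differences of Gapdh and Actb, the poly-A controls and the array medians did not pass (adjusted permutation p from 0.371 to 0.616). High-dose replicate 13 had a wide spread of these deviations. Among the 30 arrays the lowest pairwise correlation over probe sets was 0.978 and the median 0.991, and 0 pairs of the 72 arrays were identical. Against 2349 genes without a covariate, 697 differed between the doses with the hybridisation controls as a covariate and 893 with the 18S level. With the interquartile range of the deviations, a covariate chosen after seeing the data, 2100 did. For single lists, fits with some of these measures as a covariate are given beside the counts.

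Chaperone genes were higher at the high dose. Of 38 measured members of the list of inducible chaperones and other heat shock genes, 17 rose, 0 fell and 21 did not pass the test. The share that passed was 44.7%, against 18.7% of all genes tested. The median difference was 0.165, against -0.031 over all genes tested. The mean level of the list lay between 7.75 and 8.18 on high-dose arrays (median 7.99), between 7.63 and 7.93 on low-dose arrays (median 7.76) and between 7.77 and 7.95 on control arrays (median 7.86). On 10 of the 15 high-dose arrays it lay above every low-dose array. The count stayed between 15 and 19 in the fits with 1 array measure or the globin mean as a covariate and after each rescaling, and it was 9 when the means of 7 cell marker lists were covariates.

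Hspa1b, the inducible Hsp70 that refolds proteins after heat or toxic stress, ranged from 5.04 to 7.60 on high-dose arrays (median 5.93), from 3.48 to 5.15 on low-dose arrays (median 4.13) and from 3.71 to 4.62 on control arrays (median 4.17). The control range lay within the low-dose range, and 13 of 15 high-dose arrays lay above every low-dose array. Its difference was 1.84 ± 0.16 (SE), or 3.58-fold (limma, adjusted p = 1.86e-14). The 2 other probe sets of Hspa1b gave 1.89 and 1.55, and the only probe set of its near-identical copy Hspa1a, too dim to pass the filter, gave 0.715. The probe sets may not tell the 2 copies apart. The low-dose level of Hspa1b lay near the median of all deposited values, 4.14, where a difference on the log2 scale can be understated.

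Hsph1, the large Hsp110 that renews the nucleotide of Hsp70, ranged from 8.12 to 9.57 on high-dose arrays (median 8.66), from 7.44 to 8.27 on low-dose arrays (median 7.76) and from 8.04 to 8.48 on control arrays (median 8.33). The control median thus lay between the medians of the doses, and 14 of 15 arrays of the high dose exceeded all those of the low dose. The difference between the doses was 1.04 ± 0.10 (SE; adjusted p = 1.99e-13), and the other probe set of Hsph1 gave 1.14. Dnaja1, an Hsp40 that hands substrates to Hsp70, ranged from 9.39 to 10.35 on high-dose arrays (median 9.73), from 8.82 to 9.67 on low-dose arrays (median 9.16) and from 9.15 to 9.56 on control arrays (median 9.39). It was higher at the high dose by 0.66 ± 0.09 (adjusted p = 9.51e-08), with 9 arrays above every low-dose array, and its other probe sets gave 0.49 and 0.47.

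Hsp90aa1 rose, as did Stip1 and Chordc1, which work with Hsp90. Stip1, the adaptor that joins Hsp70 to Hsp90, ranged from 6.29 to 7.12 on high-dose arrays (median 6.64), from 5.82 to 6.48 on low-dose arrays (median 6.21) and from 6.29 to 6.96 on control arrays (median 6.69). Here the control arrays lay with the high-dose arrays: the low dose was 0.50 lower than control (adjusted p = 0.002), while the high dose was 0.06 higher (adjusted p = 0.887). Chordc1, an Hsp90 cochaperone, ranged from 7.97 to 8.93 on high-dose arrays (median 8.43), from 7.63 to 8.24 on low-dose arrays (median 7.82) and from 7.92 to 8.37 on control arrays (median 8.19). Stip1 differed between the doses by 0.56 ± 0.08 (adjusted p = 5.53e-07) and Chordc1 by 0.50 ± 0.07 (adjusted p = 5.93e-07). Hsp90aa1, the stress-inducible cytosolic Hsp90, differed by 0.38 ± 0.06 (adjusted p = 5.73e-06), and 12 arrays of the high dose exceeded all those of the low dose.

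Hspd1, Dnajb1 and Hspa8 rose by smaller amounts than Hspa1b. Hspd1, the mitochondrial Hsp60, was 0.40 ± 0.07 higher at the high dose (adjusted p = 1.12e-05). Dnajb1, the Hsp40 partner of inducible Hsp70, was 0.46 ± 0.09 higher (adjusted p = 3.27e-04), and Hspa8, the constitutive Hsp70 of the cytosol, 0.25 ± 0.06 (adjusted p = 0.00395). Of the 7 measured subunits of the cytosolic chaperonin that folds actin and tubulin, a group picked out after its values were seen, 1 rose (Cct3, 0.18, adjusted p = 0.0287), and the differences lay between -0.11 and 0.18. In the endoplasmic reticulum, 1 member of the unfolded protein response list rose and 3 fell of 31 measured. That was 12.9%, against 18.7% of all genes tested, and the list had a median of -0.06. Its member Edem1, which sends misfolded glycoproteins to degradation, rose by 0.27 (adjusted p = 0.00861), and Syvn1, a ubiquitin ligase of the same pathway, fell by 0.31 (adjusted p = 9.39e-04).

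Some pairs of chaperone genes varied together within a dose group. Of 6 relations between Hspa1b, Hsph1 and Dnaja1, 3 in each dose group, 4 passed by r and 2 by rho. Over the 15 high-dose arrays the levels of Hspa1b and Dnaja1 had r = 0.894 and rho = 0.789 (permutation test, 16 relations, adjusted p = 3.2e-04 and 0.00312), and r was 0.822 without the 2 arrays farthest from the median of Hspa1b. Over the 15 low-dose arrays the same pair had r = 0.495 (adjusted permutation p = 0.12) and rho = 0.389 (adjusted permutation p = 0.268). Hsph1 and Dnaja1 had r = 0.858 and rho = 0.796 at the low dose (adjusted permutation p = 3.2e-04 and 0.00312) and r = 0.678 and rho = 0.489 at the high dose (adjusted permutation p = 0.0164 and 0.132). The level of Hspa1b had no relation past the threshold to that of the B cell gene Cd22 (r = 0.22 on high-dose and -0.275 on low-dose arrays, adjusted permutation p = 0.494 and 0.392) or to the 18S level (r = 0.0953 and 0.337, adjusted permutation p = 0.749 and 0.32). Hspa1b and Hsph1 had r = 0.689 and rho = 0.5 at the high dose (adjusted permutation p = 0.0156 and 0.132), and r = 0.455 and rho = 0.3 at the low dose (adjusted permutation p = 0.141 and 0.4). Levels on 1 array share its labelling and scaling.

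Slc5a3, which carries myo-inositol, a compound that cells take up to balance their volume, was the only gene outside the chaperone list whose dose difference changed between the collections. It ranged from 4.80 to 6.16 on high-dose arrays (median 5.20), from 4.43 to 5.06 on low-dose arrays (median 4.68) and from 4.60 to 5.06 on control arrays (median 4.91). The low-dose and control ranges overlapped and 12 high-dose arrays lay above every low-dose array (difference 0.65 ± 0.09, adjusted p = 8.72e-07). The 2 other probe sets of Slc5a3, too dim to pass the filter, gave 0.19 and -0.03.

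**Figure D2:**
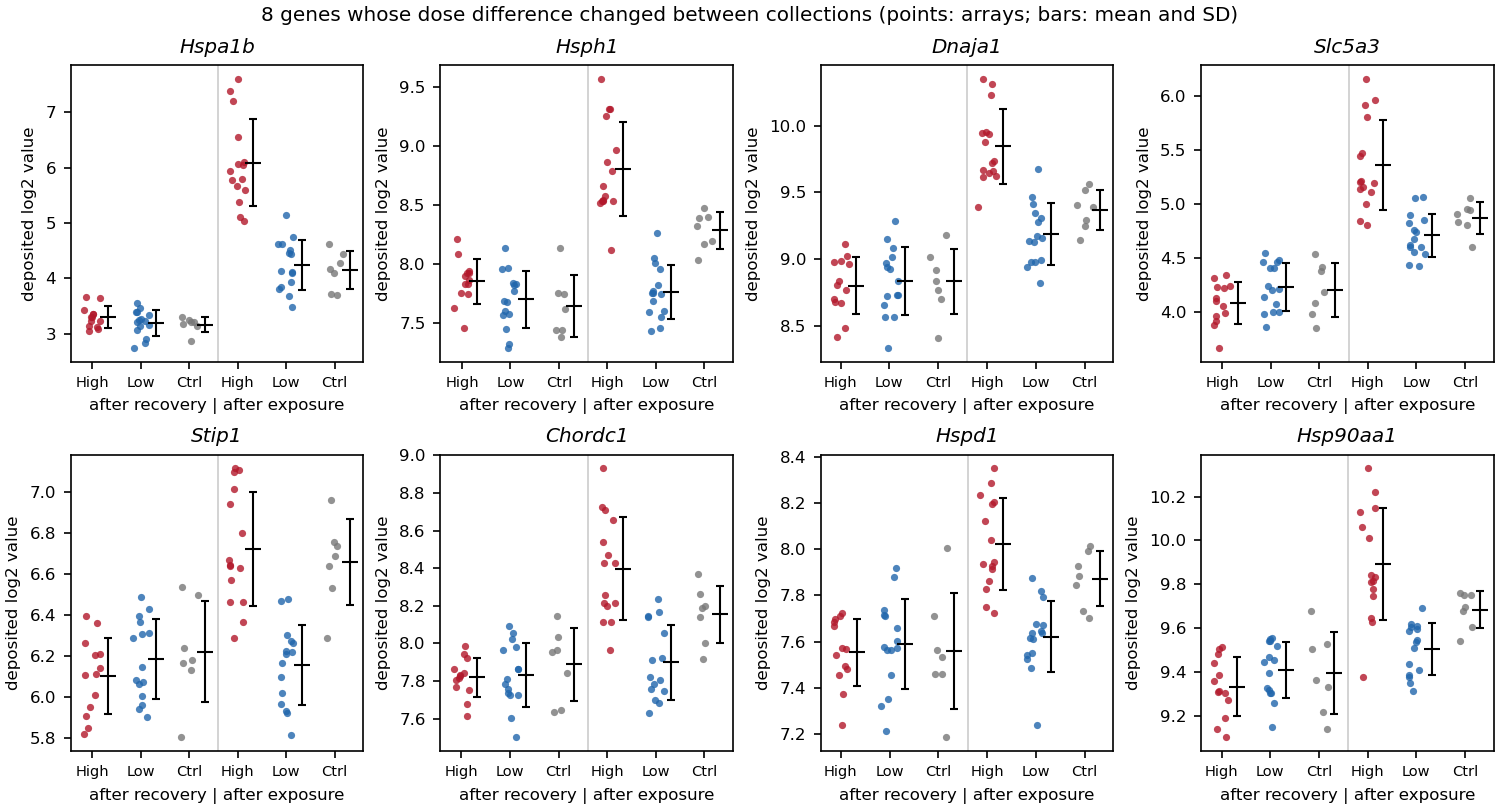
Deposited log2 levels of 8 genes on each array (points), with the mean and SD of each group (bars), for the high-dose, low-dose and control groups after recovery and, right of the line, after exposure. Hspa1b and Hsph1 of the high-dose arrays stand above the low-dose arrays after exposure, and the 3 groups overlap after recovery in all 8 genes.

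B cell genes were lower at the high dose. Of 32 measured members 28 fell, 0 rose and 4 did not pass (87.5% passed, against 18.7% of all genes tested). All 32 differences were negative, and the median was -0.56. In bulk blood, fewer cells of a type and less RNA per cell cannot be told apart. The mean level of the list lay between 7.43 and 8.26 on high-dose arrays (median 7.67), between 7.89 and 8.70 on low-dose arrays (median 8.21) and between 7.05 and 8.64 on control arrays (median 7.89). The 7 control arrays thus overlapped both dose groups, and 12 of 15 high-dose arrays lay below every low-dose array. With the globin mean as a covariate 17 members fell, and with the 18S level 23. The level of Cd22 was related to the 18S level on low-dose arrays by rho (-0.739, adjusted permutation p = 0.00643) but not by r (-0.569, adjusted permutation p = 0.0612), and on high-dose arrays by neither (r = 0.0901, rho = 0.0786, adjusted permutation p = 0.749 and 0.833). The part of the 18S level in the B cell result was not tested beyond that fit.

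Fcer2a, the low-affinity IgE receptor of mature B cells, ranged from 7.501 to 8.716 on high-dose arrays (median 7.91), from 8.34 to 9.31 on low-dose arrays (median 8.84) and from 7.26 to 9.12 on control arrays (median 8.21). With 14 high-dose arrays below every low-dose array, it fell by 0.92 ± 0.12 (limma, adjusted p = 6.01e-08), or 1.89-fold. Cd22, an inhibitory co-receptor of the B cell receptor, ranged from 8.06 to 9.19 on high-dose arrays (median 8.35), from 8.82 to 9.79 on low-dose arrays (median 9.24) and from 7.84 to 9.69 on control arrays (median 8.80), and fell by 0.80 ± 0.11 (adjusted p = 4.63e-07). The signalling subunits of the B cell receptor fell too, Cd79b by 0.82 and Cd79a by 0.75 (adjusted p = 7.73e-06 and 2.15e-05). So did the IgM receptor gene Fcmr (by 0.75), the scaffold gene Bank1 (by 0.75) and Tnfrsf13b, a receptor for the B cell survival factors BAFF and APRIL (by 0.64), with adjusted p of 5.73e-06 or less.

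Some immunoglobulin genes fell. Ighv14-2, a heavy chain variable segment, had the lowest difference of all genes (-0.94 ± 0.14, adjusted p = 9.49e-07), and the light chain segment Igkv6-14, outside the list, had -0.78 (adjusted p = 4.25e-05). Variable segments are near copies of each other, and their probe sets may take up signal of relatives. Of 11 measured immunoglobulin and plasma cell genes 4 fell and 0 rose (36.4%, against 18.7% of all genes tested), with a median of 0.03. Mzb1, a chaperone of immunoglobulin assembly in the endoplasmic reticulum, fell by 0.57 (adjusted p = 7.26e-06), and Irf4, a transcription factor of plasma cell formation, by 0.47 (adjusted p = 2.35e-05).

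The genes of antigen presentation fell with those of B cells. Of 17 measured MHC class II and related genes 14 fell and 0 rose (82.4%, against 18.7% of all genes tested). The median was -0.59. The list mean lay between 7.85 and 8.55 on high-dose arrays (median 8.09), between 8.33 and 8.93 on low-dose arrays (median 8.63) and between 7.80 and 8.85 on control arrays (median 8.23), with 13 high-dose arrays below every low-dose array. H2-Aa, an alpha chain of the class II molecule, ranged from 10.63 to 11.50 on high-dose arrays (median 10.95), from 11.28 to 12.03 on low-dose arrays (median 11.70) and from 10.44 to 11.96 on control arrays (median 11.18). It fell by 0.72 ± 0.09 (adjusted p = 6.01e-08). The other chains and helpers had similar sizes: H2-DMb2 and H2-Ob, which govern peptide loading, fell by 0.80 and 0.75, the beta chains H2-Eb1 and H2-Ab1 by 0.74 and 0.73, and the invariant chain Cd74 by 0.74 (adjusted p of 9.69e-07 or less). The levels of Cd22 and H2-Aa went together within the high-dose arrays (r = 0.927, rho = 0.911) and within the low-dose arrays (r = 0.893, rho = 0.846; permutation test, adjusted p of 0.00104 or less).

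Monocyte genes were lower at the high dose. Of 28 measured members 18 fell, 1 rose and 9 did not pass (67.9% passed, against 18.7% of all genes tested). The median was -0.27. The list mean lay between 7.43 and 7.79 on high-dose arrays (median 7.65), between 7.66 and 8.11 on low-dose arrays (median 7.88) and between 7.26 and 7.86 on control arrays (median 7.55). Control arrays overlapped the high-dose arrays more than the low-dose ones, and against control 0 members passed at the high dose while 10 rose at the low dose. Ccr2, the chemokine receptor of inflammatory monocytes, ranged from 6.0 to 7.09 on high-dose arrays (median 6.71), from 6.75 to 7.69 on low-dose arrays (median 7.36) and from 6.47 to 8.003 on control arrays (median 6.85). It fell by 0.70 ± 0.11 (adjusted p = 8.46e-06). Cybb, the catalytic subunit of the phagocyte oxidase, fell by 0.57, Ms4a4c by 0.52, the lysosomal protease gene Ctss by 0.41 and the lysozyme gene Lyz2 by 0.33 (adjusted p of 1.14e-04 or less). With the globin mean as a covariate 7 members fell, and with the 18S level 11.

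Targets and regulators of NF-kappaB that are also active in B cells and monocytes fell in part. Of 23 measured members 9 fell and 0 rose (39.1%, against 18.7% of all genes tested), and the median was -0.16. Cd40, the co-stimulatory receptor of B cells, fell by 0.57 (adjusted p = 8.72e-07). The inhibitors Nfkbie and Nfkbia fell by 0.44 and 0.34, and Cd83, an activation marker, by 0.39 (adjusted p of 0.00244 or less). With the globin mean as a covariate 1 member fell, and with the hybridisation controls 3.

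Of the neutrophil, T cell and cytotoxic genes 21.4%, 13.8% and 4.55% passed, against 18.7% of all genes tested. Of 28 measured neutrophil genes 5 fell and 1 rose, with a median of -0.17. S100a8, a calcium-binding protein of the neutrophil cytosol, fell by 0.29 (adjusted p = 0.00288) and Cd177, a neutrophil surface protein, by 0.46 (adjusted p = 0.00623). The neutrophil list also held Crisp3, which fell by 0.80 (adjusted p = 1.62e-05). However, the median level of Crisp3, 2.68 on high-dose and 3.48 on low-dose arrays, was below the median of all deposited values. Il1r2, the decoy receptor for interleukin-1, rose by 0.53 (adjusted p = 0.00143). Of 29 T cell genes 1 rose and 3 fell, with Trat1, an adaptor of the T cell receptor, 0.29 higher (adjusted p = 0.00483) and Cd3d, a subunit of that receptor, 0.24 lower (adjusted p = 0.0339). The median of the T cell list was -0.06 in the values as deposited and 0.01 after cyclic loess. Of 22 NK and cytotoxic genes 1 rose (Cd7, 0.15) and 0 fell. Of 13 eosinophil and basophil genes 1 rose (Gata2, 0.30) and 1 fell (15.4%, against 18.7% of all genes tested).

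**Figure D3:**
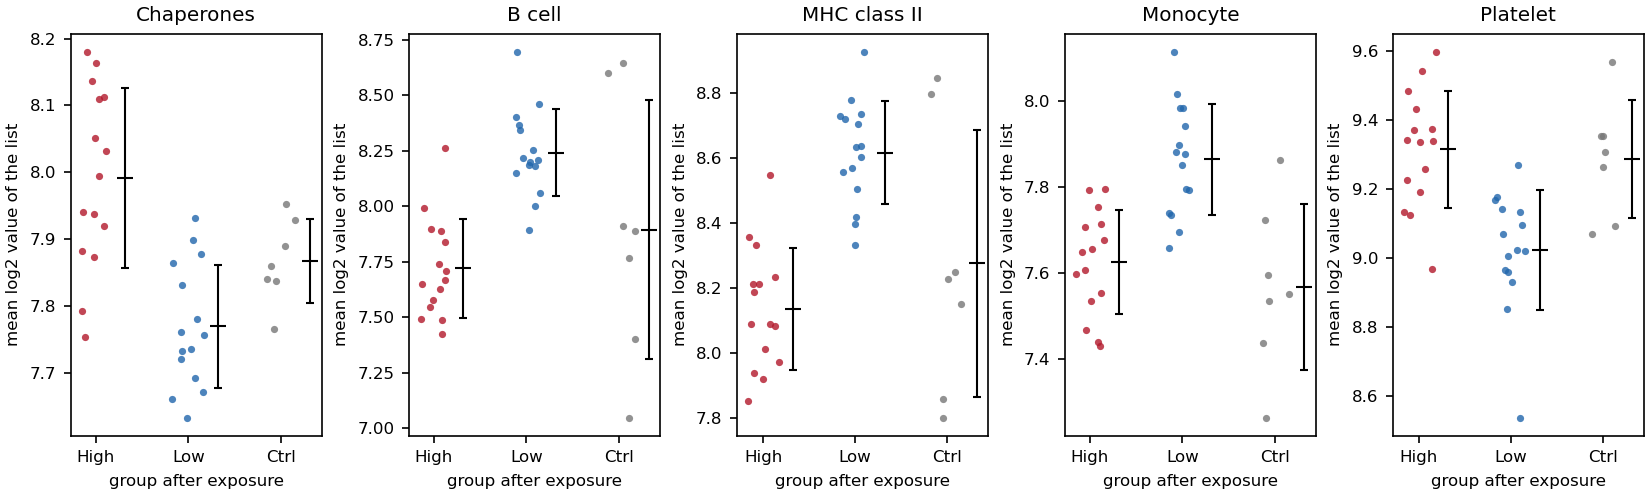
Mean log2 level of 5 gene lists on each high-dose, low-dose and control array after exposure (points), with the mean and SD of each group (bars). For B cell and for MHC class II genes the 7 control arrays overlap both dose groups, and in the monocyte list they overlap the high-dose arrays more than the low-dose arrays.

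Platelet genes were higher at the high dose. Of 36 measured members 26 rose, 0 fell and 10 did not pass (72.2% passed, against 18.7% of all genes tested). The median was 0.30. The list mean lay between 8.97 and 9.60 on high-dose arrays (median 9.34), between 8.54 and 9.27 on low-dose arrays (median 9.02) and between 9.07 and 9.57 on control arrays (median 9.31), so that the control arrays lay with the high-dose arrays. Thbs1, the adhesive protein thrombospondin of platelet alpha granules, ranged from 8.003 to 8.80 on high-dose arrays (median 8.25), from 6.60 to 8.22 on low-dose arrays (median 7.74) and from 7.61 to 8.82 on control arrays (median 8.24). It rose by 0.65 ± 0.12 (adjusted p = 1.09e-04). F2rl2, a thrombin receptor, ranged from 7.14 to 7.83 on high-dose arrays (median 7.60), from 6.36 to 7.44 on low-dose arrays (median 7.11) and from 7.20 to 7.87 on control arrays (median 7.41), and rose by 0.47 ± 0.08 (adjusted p = 4.74e-05). Tbxas1, the thromboxane synthase, rose by 0.34, the junction protein gene Esam by 0.40, the cation exchanger gene Slc24a3 by 0.44 and the integrin gene Itgb5 by 0.36 (adjusted p of 2.70e-04 or less). With the hybridisation controls as a covariate 16 members rose.

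Erythroid genes rose in part. Of 37 measured members 11 rose and 0 fell (29.7%, against 18.7% of all genes tested), and the median was 0.21. The list mean lay between 7.92 and 8.99 on high-dose arrays (median 8.60), between 8.12 and 8.59 on low-dose arrays (median 8.32) and between 8.004 and 8.71 on control arrays (median 8.43), and the high-dose arrays reached above and below the others. Gata1, the master transcription factor of red cells and megakaryocytes, ranged from 8.36 to 8.85 on high-dose arrays (median 8.60), from 7.97 to 8.58 on low-dose arrays (median 8.23) and from 8.25 to 8.69 on control arrays (median 8.37). It rose by 0.41 ± 0.06 (adjusted p = 4.11e-06). Tal1, Gfi1b and Nfe2, transcription factors that megakaryocytes share with red cells, rose by 0.40, 0.33 and 0.29, and the water channel gene Aqp1 by 0.45 (adjusted p of 0.00221 or less). The erythropoietin receptor gene Epor rose by 0.21 (adjusted p = 0.025), and Tfrc, the transferrin receptor that brings iron into red cell precursors, by 0.62 ± 0.23 (adjusted p = 0.0486, past the threshold in 13 of 30 fits that left out 1 array). The other kept probe set of Tfrc gave 0.197. Of 5 globin genes left after depletion 2 rose and 0 fell (40%, against 18.7% of all genes tested). They were Hbb-bh1, by 0.38, and Hbb-y, by 0.35 (adjusted p = 0.0162 and 0.0262). The other kept probe set of Hbb-bh1 gave 0.134, and those of Hbb-y gave 0.337 and 0.239. Hbb-bh1 averaged 4.28 on high-dose and 3.90 on low-dose arrays, around the median of all deposited values, 4.14. Globin genes are near copies whose probe sets may share signal. With the hybridisation controls as a covariate 5 erythroid genes and 0 globin genes rose. Leaving out 1 array moved the erythroid count between 6 and 13, with 6 without high-dose replicate 6, 7 or 13 or low-dose replicate 3, and 7 without high-dose replicate 11 or low-dose replicate 1 or 5.

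Cell cycle genes were higher in part. Of 31 measured members 12 rose and 0 fell (38.7%, against 18.7% of all genes tested), and the median was 0.14. Rrm2, a subunit of the enzyme that makes deoxyribonucleotides, rose by 0.64, the centromere protein gene Cenpf by 0.58, Top2a, the topoisomerase of dividing cells, by 0.36 and the mitotic gene Cdca8 by 0.30 (adjusted p of 0.00757 or less). Other kept probe sets gave smaller differences: 0.230 and 0.549 for Rrm2, 0.180 for Cenpf, and 0.106 and 0.224 for Cdca8. Cdca5, which holds sister chromatids together, and the centromere gene Cenpw, both outside the list, rose by 0.62 each (adjusted p = 0.00342 and 0.00331). Their high-dose levels were spread widely: Cdca5 ranged from 4.17 to 6.49 on high-dose arrays and from 3.87 to 5.26 on low-dose arrays. The other kept probe set of Cdca5 gave 0.064. Cenpw averaged 4.33 on high-dose and 3.71 on low-dose arrays, around the median of all deposited values, 4.14. Its other probe set, too dim to pass the filter, gave -0.055. With the globin mean as a covariate 2 members of the list rose, and with the hybridisation controls 4. Leaving out 1 array moved the count between 7 (without high-dose replicate 7 or 13) and 14.

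By the probe sets that stood for them, 4 genes of heme synthesis and nucleotide breakdown known in connection with lead did not pass the test. Alad, the delta-aminolevulinate dehydratase, had a median of 8.22 on high-dose and 8.01 on low-dose arrays (difference 0.21 ± 0.11, adjusted p = 0.142). Its other kept probe set gave 0.405, and with the mean of both the difference was 0.31 (adjusted p = 0.019); with array weights it was 0.29 (adjusted p = 0.0326). Fech, the ferrochelatase, and Alas2, which starts heme synthesis in red cells, differed by -0.01 ± 0.03 each (adjusted p = 0.828 and 0.779), at levels near the top of the array's range, where differences can be compressed. The other kept probe sets of Fech gave 0.201, 0.033 and -0.024. Nt5c3, the pyrimidine nucleotidase, differed by 0.07 ± 0.15 (adjusted p = 0.772). Of 33 measured genes of heme synthesis and iron handling 4 rose and 3 fell (21.2%, against 18.7% of all genes tested). Among those that rose were Cpox, the coproporphyrinogen oxidase, by 0.20 (adjusted p = 0.00976), Slc25a38, the mitochondrial glycine importer, by 0.21 and Abcg2, a porphyrin exporter, by 0.29 (adjusted p = 0.0117 and 0.0106). The other kept probe set of Cpox gave 0.048, and one too dim to pass the filter gave -0.127. Hfe, the hemochromatosis protein gene, fell by 0.30 and Aco1, the iron regulatory protein 1, by 0.28 (adjusted p = 0.01 and 0.0237). The other kept probe set of Aco1 gave -0.080, and one too dim to pass the filter gave 0.139.

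Of 18 measured lead targets 3 rose and 2 fell (27.8%, against 18.7% of all genes tested). The 3 that rose were Trpc1, Gsr and Cpox. Cpox is also counted in the heme list above, and Gsr in the antioxidant list below. Trpc1, a subunit of cation channels, ranged from 4.68 to 5.82 on high-dose arrays (median 5.28), from 3.99 to 5.05 on low-dose arrays (median 4.73) and from 4.99 to 5.44 on control arrays (median 5.18). The control arrays lay with the high dose, and 13 high-dose arrays lay above every low-dose array (0.61 ± 0.10, adjusted p = 1.14e-05). Prkcb, the protein kinase C of B cells, and Prkcd fell by 0.30 and 0.24 (adjusted p = 0.00483 and 0.00868). The metallothioneins Mt1 and Mt2, which bind zinc and toxic metals, differed by 0.12 ± 0.07 and -0.09 ± 0.09 (adjusted p = 0.206 and 0.531). Of 17 measured metallothionein and metal transport genes 2 rose and 1 fell (17.6%, against 18.7% of all genes tested). The metal-responsive transcription factor gene Mtf1 rose by 0.17 and the zinc importer gene Slc39a4 by 0.30 (adjusted p = 0.00978 and 0.0162). However, the other kept probe sets of Mtf1 gave 0.034 and 0.052, and those too dim to pass the filter gave -0.040 and -0.060. Of 25 antioxidant genes 2 rose and 0 fell (8%, against 18.7% of all genes tested). The glutathione reductase gene Gsr rose by 0.29 and the sulfiredoxin gene Srxn1 by 0.27 (adjusted p = 0.00866 and 0.0445). Srxn1 was past the threshold in 14 of 30 fits that left out 1 array.

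Immediate early genes, which respond within minutes to signals, were lower after the high dose. Of 28 measured members 12 fell and 2 rose (50%, against 18.7% of all genes tested), and the median was -0.15. Fos, a subunit of the AP-1 transcription factor, ranged from 7.28 to 8.14 on high-dose arrays (median 7.70), from 7.79 to 8.47 on low-dose arrays (median 8.20) and from 5.97 to 7.84 on control arrays (median 6.77). Control arrays were thus the lowest, and the low dose was 1.28 above control (adjusted p = 7.35e-06) while the high dose was 0.80 above it (adjusted p = 0.0552). Between the doses Fos fell by 0.48 ± 0.14 (adjusted p = 0.0139). Dusp1, a phosphatase that ends MAP kinase signals, had the same order, with medians of 9.01 on high-dose, 9.37 on low-dose and 8.25 on control arrays, and fell by 0.39 ± 0.12 (adjusted p = 0.0195). Zfp36l1, which destabilises mRNAs, fell by 0.32, and Ier2 and Nr4a1 by 0.23 each (adjusted p of 0.00754 or less). Slc12a2, a sodium, potassium and chloride cotransporter, and Cxcr4, a chemokine receptor, both outside the list, did not pass between the doses (-0.18 ± 0.08 and -0.14 ± 0.13, adjusted p = 0.117 and 0.448). Slc12a2 ranged from 5.93 to 6.76 on high-dose arrays, from 6.29 to 6.71 on low-dose arrays and from 5.42 to 6.07 on control arrays. With the hybridisation controls as a covariate 1 immediate early gene fell, and with the globin mean 1. After cyclic loess 6 fell.

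Cold-inducible and RNA-binding stress genes were lower at the high dose. Of 17 measured members 11 fell and 0 rose (64.7%, against 18.7% of all genes tested), and the median was -0.24. Cirbp, the RNA-binding protein that rises when cells cool and falls when they warm, ranged from 4.71 to 6.43 on high-dose arrays (median 5.62), from 5.98 to 6.90 on low-dose arrays (median 6.41) and from 5.05 to 6.61 on control arrays (median 5.49). The control arrays lay mostly with the high-dose arrays, and the low dose was 0.67 above control (adjusted p = 0.0259). Between the doses Cirbp fell by 0.70 ± 0.14 (adjusted p = 1.84e-04). The nuclear RNA Malat1 fell by 0.39, the helicase gene Ddx17 by 0.40 and the splicing factor gene Srsf5 by 0.41 (adjusted p of 0.00103 or less). With the globin mean as a covariate 3 members fell.

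Of the ribosomal, proteasome and oxidative phosphorylation genes 42.4%, 19.4% and 11.1% passed, all lower at the high dose, against 12.6% of all genes called lower. Of 33 measured cytosolic ribosomal protein genes 14 fell and 0 rose, with a median of -0.12 and Rpl12 at -0.34 (adjusted p = 0.00337). Of 31 proteasome subunits 6 fell and 0 rose, with Psmb7 at -0.33 (adjusted p = 0.00962). Of 45 oxidative phosphorylation subunits 5 fell and 0 rose, with Uqcrc1 at -0.28 (adjusted p = 0.00844). The ribosomal count was 6 after quantile normalization, 5 after median centring and 8 after cyclic loess. Leaving out 1 array moved the ribosomal count between 6 (without high-dose replicate 1 or 6) and 22 (without low-dose replicate 12). It moved the proteasome count between 3 (without high-dose replicate 1, 6 or 13 or low-dose replicate 3 or 14) and 12 (without high-dose replicate 12 or low-dose replicate 12). The oxidative phosphorylation count moved between 1 (without any of 7 arrays, among them high-dose replicate 13) and 10 (without high-dose replicate 12). The medians of these lists kept their sign under each rescaling, but with the hybridisation controls as a covariate 0 ribosomal, 1 proteasome and 0 oxidative phosphorylation genes fell.

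In the remaining lists between 5.56% and 25% of the members passed, against 18.7% of all genes. Of 41 interferon response genes 2 rose and 4 fell, with Ly6e 0.45 and Ifi44l 0.48 lower (adjusted p = 0.00103 and 0.00526). Of 20 glucocorticoid response genes 2 rose and 3 fell, with Fkbp5, a target that dampens the glucocorticoid receptor, 0.23 higher (adjusted p = 0.0429). Fkbp5 was past the threshold in 18 of 30 fits that left out 1 array. Of 22 p53 and DNA damage genes 2 rose and 1 fell, and of 18 circadian clock genes 0 rose and 1 fell. Markers of tissues near the bleeding site (skin of the face, muscle, salivary gland) were measured for 15 of 31 listed genes. One of them rose, the carboxypeptidase gene Cpe, by 0.79 ± 0.22 (adjusted p = 0.00976). It ranged from 5.09 to 8.18 on high-dose arrays (median 5.97) and from 5.11 to 6.48 on low-dose arrays (median 5.61), with 6 high-dose arrays above and 1 below every low-dose array.

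Several of the genes with the largest differences belong to none of the lists. Apol8, an apolipoprotein L family gene, was 0.70 ± 0.20 higher at the high dose (adjusted p = 0.0109), Bmp2, a bone morphogenetic protein, 0.61 ± 0.11 (adjusted p = 4.30e-05) and Fam110b 0.57 ± 0.11 (adjusted p = 2.90e-04). Fam110b lay above every low-dose array on 12 high-dose arrays. Dennd5b, a regulator of vesicle traffic, fell by 0.78 ± 0.13 (adjusted p = 1.80e-05) and B3gnt8, a glycosyltransferase, by 0.75 ± 0.11 (adjusted p = 1.14e-06).

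**Figure D4:**
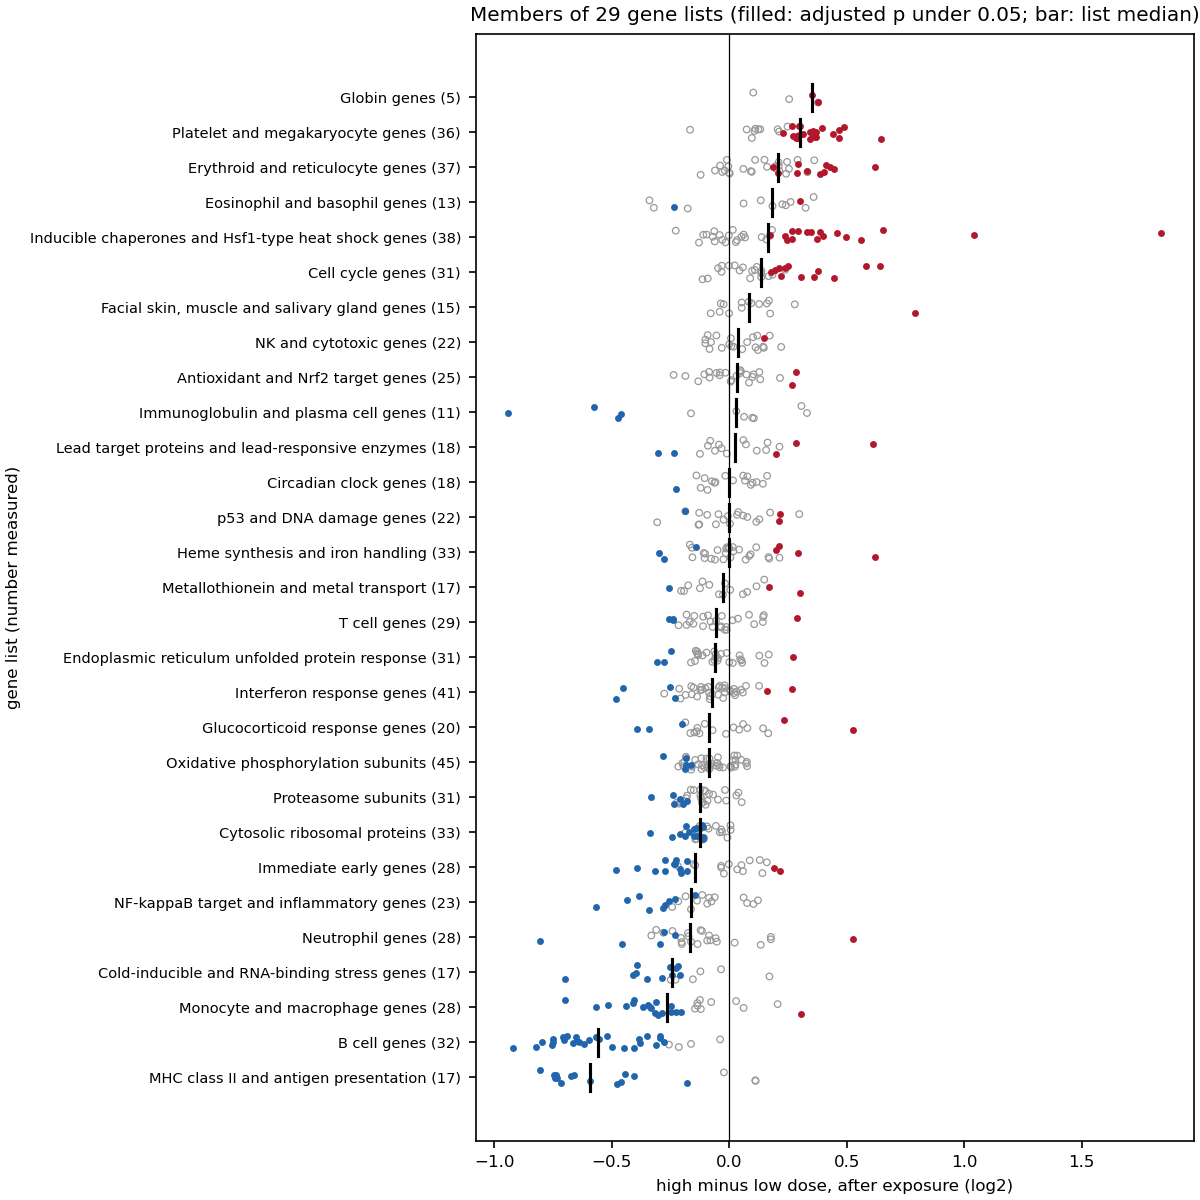
Log2 difference, high minus low dose after exposure, of each measured member of 29 gene lists. Filled points have an adjusted p under 0.05 (red higher, blue lower), open points do not, and the black bar is the list median; chaperone, platelet, cell cycle and erythroid members that passed lie to the right, and B cell, MHC class II, monocyte and cold-inducible members mostly to the left.

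The controls lay between the doses for many of the genes that differed. The control mean was between the high-dose and low-dose means for 1943 of the 2349 called genes (82.7%), against 5940 of all 12588 genes (47.2%), and a wide gap between 2 means by itself leaves more room for another mean. Against control, 3 genes passed at the high dose (Hspa1b, Dnajb1 and Slc12a2, 0.0238% of those tested) and 164 at the low dose (1.3%), from 15 and 15 arrays set against the same 7. Slc12a2 averaged 6.30 on high-dose and 6.48 on low-dose arrays, so its low-dose level lay farther above control than its high-dose level. In the chaperone list 2 members passed against control at the high dose, and at the low dose 0 rose and 3 fell. In the B cell list 0 passed at the high dose and 7 rose at the low dose, and in the MHC class II list 0 and 6. The median difference from control of the B cell list was -0.20 at the high dose and 0.39 at the low dose, that of the MHC class II list -0.13 and 0.42, that of the platelet list 0.01 and -0.27 and that of the chaperone list 0.04 and -0.10. In the platelet list 0 members passed at the high dose, and 0 rose and 1 fell at the low dose. Stip1, Trpc1, Cirbp and Fos were among the genes that passed against control at the low dose, and Hspa1b among those at the high dose.

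After recovery 0 genes differed between the doses (0% of those tested) by limma at an adjusted p under 0.05, while 1765 had an unadjusted p under 0.05 and 95 passed when arrays were weighted by quality. Of the 2349 genes called after exposure, 2242 (95.4%) had the same sign after recovery, against 9950 of all 12588 genes (79%). The recovery samples are second bleeds of the exposed mice, and genes are not independent of each other. The genes called higher had a median of 0.11 after recovery, against 0.26 after exposure, and those called lower -0.11, against -0.24. The medians of the lists were -0.22 after recovery and -0.56 after exposure for B cell genes, -0.24 and -0.59 for MHC class II, 0.13 and 0.30 for platelets, and 0.30 and 0.21 for erythroid genes. The chaperone list had -0.03 after recovery and 0.165 after exposure.

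The difference between the doses changed between the collections for 8 genes (0.0636% of those tested), all of them smaller after recovery. The fit treats all 72 arrays as independent and has no term for the mice that were bled at each collection. The 8 genes were Hspa1b, Hsph1, Dnaja1, Stip1, Chordc1, Hsp90aa1, Hspd1 and Slc5a3, so that 7 of the 8 belong to the 38 measured genes of the chaperone list. That list was chosen with earlier results of these data known, so this count is a description only. With the interquartile range of the deviations as a covariate 6 genes passed, without Chordc1 and Hspd1. Hspa1b differed between the doses by 0.11 ± 0.16 after recovery and by 1.84 ± 0.16 after exposure, a change of -1.73 ± 0.23 (limma, adjusted p = 7.13e-07). On recovery arrays Hspa1b ranged from 3.04 to 3.67 at the high dose and from 2.74 to 3.55 at the low dose, below the lowest high-dose array after exposure. All of these lie under the median of all deposited values, 4.14, so the recovery difference of Hspa1b is read from levels near background and its size, and that of the change, are uncertain. Hsph1 differed by 0.15 after recovery and by 1.04 after exposure, a change of -0.89 ± 0.14 (adjusted p = 5.28e-05). For H2-Aa and Fcer2a, called lower after exposure, the difference moved by 0.48 ± 0.13 and 0.64 ± 0.17 between the collections, which did not pass (limma, adjusted p = 0.313 and 0.28). When arrays were weighted by quality, the change of H2-Aa passed and that of Fcer2a did not.

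**Figure D5:**
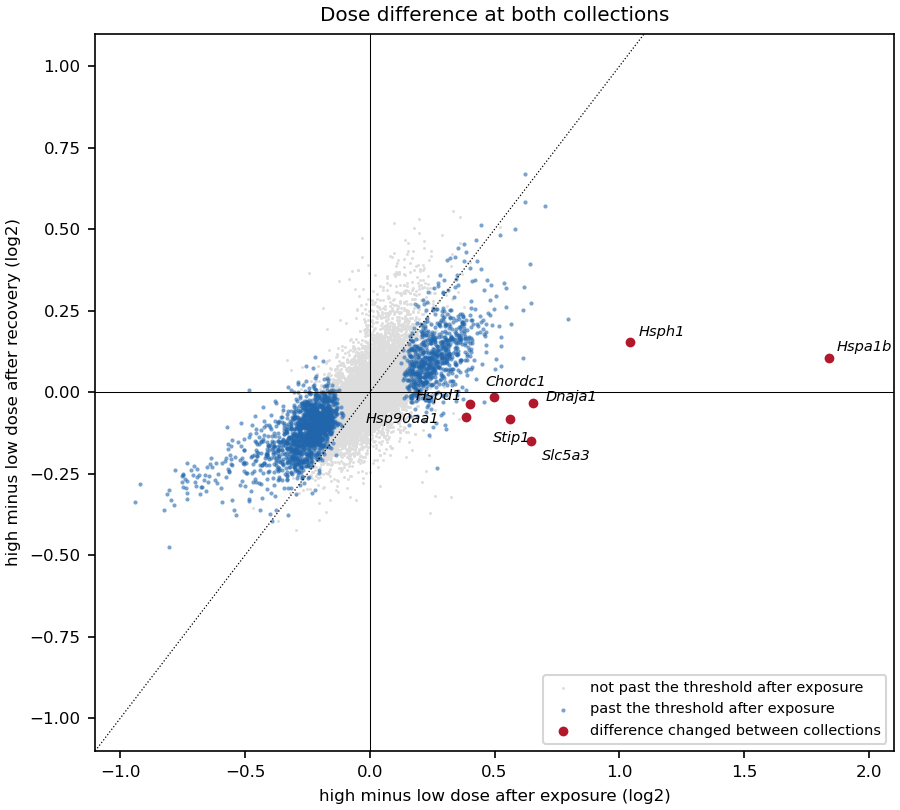
Log2 difference between the doses, high minus low, after exposure (horizontal axis) and after recovery (vertical axis) for each tested gene; blue marks genes past the threshold after exposure, red the 8 whose difference changed, and the dotted line equality. Genes called after exposure lie mostly between the dotted line and 0, and the red points lie at or near 0 after recovery.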

How the data were processed

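Blood RNA of 72 samples was hybridised to Affymetrix mouse expression arrays. The deposited values are log2 levels of 45101 probe sets made by the authors with RMA, per the submitters' processing notes; the sources used here give neither the software nor its version. Probe sets with exactly 1 gene symbol (34945) were kept where above the median of all values (4.14) on at least 7 arrays, with the probe set of highest mean standing for its gene, which left 12588 genes. limma (3.58.1, R 4.3.3) fitted 6 group means to all 72 arrays with empirical Bayes moderation and Benjamini-Hochberg adjustment, threshold 0.05. The change between collections was a contrast in that fit. The test was tried on simulated data of 12588 genes for the dose comparison after exposure: 34% of 50 genes moved by 0.25 were recovered and 98% of 50 moved by 0.5. In all 200 genes were moved, each gene varied independently of the others, and 7 unmoved genes passed. In the blood data 2349 genes passed and genes are not independent, so these rates may not hold there. Genes were named as the 15 highest and 15 lowest differences past the threshold (leaving out clone and predicted names), up to 6 members of smallest p in each list, the 5 of smallest p for the dose difference and the 5 for its change, and a set named whatever its result. The members and lists were chosen with earlier results of these data known. Of 719 measured genes in any list, 25 are in more than 1 list, so the counts of lists are not all separate. Arrays of a group are labelled as separate samples, and their number limits the precision. Alternatives were other scalings, filters, probe set rules, array weights, covariates and left-out arrays.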

Additional observations from a re-analysis of the deposited data

Results flagged for a closer look

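For 8 genes the difference between the doses changed between the collections, by a contrast of recovery minus exposure in the limma fit. The change was -1.73 for Hspa1b (adjusted p = 7.13e-07), -0.89 for Hsph1 (adjusted p = 5.28e-05), -0.80 for Slc5a3 (adjusted p = 3.97e-04) and -0.69 for Dnaja1 (adjusted p = 7.34e-04). It was -0.64 for Stip1 (adjusted p = 7.34e-04), -0.51 for Chordc1 (adjusted p = 0.00588), -0.46 for Hsp90aa1 (adjusted p = 0.00277) and -0.43 for Hspd1 (adjusted p = 0.0286).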

How the results depend on the processing

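The count of 2349 genes after exposure fell to 697 with the hybridisation controls as a covariate, 893 with 18S ribosomal RNA, 779 with the globin mean, 60 with a fold of at least 1.5 and 23 with the means of 7 cell marker lists, which are built from the lists described here; 16 of those 23 were among the 2349. Weighting arrays by quality gave 95 genes after recovery, and 15 genes whose difference changed, against 27 with the 7 cell marker means. With those means the differences turned to -0.074 for Rrm2, -0.109 for Tfrc, 0.009 for Cd79a, -0.047 for Aqp1, -0.013 for Epor, -0.027 for Hbb-y, 0.02 for Prkcb, 0.038 for Prkcd, -0.042 for Slc39a4, -0.164 for Srxn1, 0.01 for Zfp36l1 and 0.088 for Cd83; the cause was not tested. Leaving out 1 array gave between 1691 (without low-dose replicate 3) and 3062 genes (without low-dose replicate 12) after exposure, and 7 to 9 genes whose difference changed. With the interquartile range of each array's deviations as a covariate, chosen after seeing the data, these were 2100 and 6. The number of arrays and levels near background limit what can be detected.

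In a fit of only the 30 arrays of both doses after exposure 2627 genes passed, and 2881 when the replicate number was added as a block. Over the 15 pairs the deviations of arrays with the same number correlated between -0.569 and 0.661 (median 0.124), with 8 over 0.1. Of the high-dose arrays, 4 correlated best with the low-dose array of their own number. The labels do not say that a number pairs samples, and whether it does was not tested further.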
